A study of Mus musculus with 4 samples.

Results

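The genes of cholesterol and fatty acid synthesis were followed across the leukocytes of injured mouse muscle. The set was a fixed list of 31 genes, all found by symbol among the 27998 genes of the count tables. It held 3 regulators, 18 enzymes of the sterol pathway, the sterol carrier *Stard4* and 9 genes of fatty acid synthesis, desaturation and elongation.

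CD45+ cells had been enriched from the tibialis anterior of male mice, 8 to 12 weeks old, at 2 or 4 days after cardiotoxin, a venom component that kills muscle fibres (dpi2 and dpi4). Each time point had 1 library labelled control and 1 labelled KO, measured by 10x 3′ single-cell RNA sequencing. According to the study, controls were Bach1 fl/fl littermates, and KO mice were Bach1 fl/fl animals that also carried Lyz2-Cre. Both genotypes thus carry loxP sites around exon 4 of *Bach1*, which encodes a heme-binding repressor of transcription. Cre is driven by the *Lyz2* promoter, active in monocytes, macrophages and neutrophils, so lymphocytes and other leukocytes are not its intended target. With 1 library per group, no spread between mice was measured, no test was run, and every interval below is a 95% interval for counting error only.

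Most animal cells make cholesterol from acetyl-CoA through mevalonate, farnesyl pyrophosphate, squalene and lanosterol. Transcription of these enzymes is driven by SREBP2, encoded by *Srebf2*, and that of fatty acid enzymes largely by SREBP1, encoded by *Srebf1*. Both factors are held in the endoplasmic reticulum by INSIG proteins, such as that of *Insig1*, while sterols are plentiful. Macrophages that engulf dead cells receive cholesterol from them, and export it through transporters such as those encoded by *Abca1* and *Abcg1*.

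The libraries held from 4177 to 6602 barcodes and from 57010520 to 80228489 UMIs, that is, distinct RNA molecules. After filtering, 5721 and 3684 cells were kept at dpi2 (control and KO) and 4173 and 3433 at dpi4. Pairs of libraries shared from 2 to 14 barcodes. Over all barcodes, *Lyz2* stood at 9388 and 15845 CPM (UMI counts scaled to a common total) in the control libraries and at 17.5 and 21.6 CPM in those labelled KO. The libraries labelled KO thus differed in Cre and in *Lyz2* as well as in the *Bach1* deletion. Ratios between genotypes cannot tell these apart. *Bach1* stood at 189 and 207 CPM in the controls and at 187 and 217 CPM in those labelled KO; counts taken at the 3′ end lie outside the deleted exon, so this level does not check the deletion. Clusters were named from fixed markers, and the names macrophages, monocytes, neutrophils, dendritic cells and T or NK cells stand for cells that resemble these types. Macrophages were 1969, 1076, 3048 and 2610 cells in control dpi2, KO dpi2, control dpi4 and KO dpi4, the order used for values in all 4 libraries. Monocytes were 2574, 996, 50 and 73 cells, so that their dpi4 values rest on few cells. A cluster led by *Prok2*, *Pdcd1lg2* and *Il1f9*, of 90, 486, 4 and 12 cells, was left unnamed and is in none of the classes. It was shallow for its libraries and had no fixed marker among its leading genes. Its median was 3424 UMIs per cell, against 2891 in the cluster named neutrophils. Values of neutrophils leave this cluster out, and whether it belongs with them was not tested. The summed sterol enzymes of this cluster stood at 189 CPM (140 to 249) in control dpi2 and 200 CPM (180 to 222) in KO dpi2, a ratio of 1.06 (0.790 to 1.46).

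The first comparison was between cell types within a library. At dpi2 the summed sterol enzymes were over 2-fold higher in monocytes and dendritic cells than in macrophages of both libraries, though not every enzyme was. Their summed level in control dpi2 was 716 CPM (706 to 726) in monocytes and 809 CPM (780 to 838) in dendritic cells, against 251 CPM (246 to 256) in macrophages. The ratio to macrophages was 2.85 (2.78 to 2.92) for monocytes and 3.22 (3.09 to 3.36) for dendritic cells. In KO dpi2 the same ratios were 2.08 (2.01 to 2.14) and 2.57 (2.47 to 2.69). Neutrophils were the lowest of the 5 classes at dpi2, with 173 CPM (152 to 195) in control and 140 CPM (126 to 154) in KO. T or NK cells, at 238 CPM (195 to 288) and 309 CPM (234 to 400), could not be separated from macrophages by counting error. At dpi4 the monocyte ratio was 1.23 (1.05 to 1.45) in control and 1.10 (0.952 to 1.28) in KO, and the dendritic ratio 1.53 (1.45 to 1.61) and 1.34 (1.28 to 1.41).

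Genes were counted by a rule of size: a ratio of at least 2-fold, an interval that leaves out 1, and at least 50 UMIs in the pair of cell sums. By this rule 15 of the 29 members with enough UMIs were higher in monocytes than in macrophages of control dpi2, against 7.63% of all genes. In KO dpi2 it was 11 of 29, against 6.01%. The median log2 ratio of the members was 1.18 in control dpi2, whereas that of all genes was -0.26. Dendritic cells exceeded macrophages for 17 of 29 members in control dpi2 (9.50% of all genes) and for 12 of 29 in KO dpi2 (8.99%). At dpi4 the dendritic counts were 11 of 30 in control (8.61%) and 6 of 30 in KO (10.0%). Monocytes at dpi4, which were few, exceeded macrophages for 3 of 30 members in control (710 of 11255 genes) and 5 of 29 in KO (767 of 10955).

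The sterol enzymes that most separated monocytes and dendritic cells from macrophages included *Idi1*, *Fdps* and *Cyp51*. *Idi1*, isopentenyl diphosphate isomerase, stood in control dpi2 at 15.2 CPM in macrophages, 111 in monocytes and 126 in dendritic cells. *Fdps*, which makes farnesyl pyrophosphate, stood at 13.8, 68.9 and 102 CPM in the same order. *Cyp51*, the lanosterol demethylase, stood at 15.2, 110 and 87.3 CPM. For all 3 genes monocytes and dendritic cells lay several-fold above macrophages, with ratios up to 8.28 (7.32 to 9.37), and the lowest, that of *Fdps* in monocytes, had an interval of 4.53 to 5.52. *Hmgcs1*, the synthase that opens the mevalonate pathway, differed less, at 30.0 CPM in macrophages, 76.4 in monocytes and 84.4 in dendritic cells.

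Other enzymes of the same pathway differed less between these cells or lay the other way. *Ebp*, a sterol isomerase, stood at 53.8 CPM in macrophages and 61.4 in monocytes of control dpi2, a ratio of 1.14 (1.07 to 1.22). *Dhcr7*, which carries out the last reduction to cholesterol on one branch, stood at 5.93 CPM in monocytes against 7.76, a ratio of 0.763 (0.626 to 0.928). *Mvk*, mevalonate kinase, had a ratio of 0.834 (0.716 to 0.970). By the rule of size 11 of the 18 sterol enzymes were higher in monocytes in control dpi2 (7.63% of all genes) and 8 of 18 in KO dpi2 (6.01%), and the interval lay wholly above 1 for 14 and 12 of them.

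Among the regulators, *Srebf2* followed the enzymes and *Srebf1* did not. *Srebf2* stood at 23.1, 72.8 and 85.2 CPM in macrophages, monocytes and dendritic cells of control dpi2, with a monocyte ratio of 3.15 (2.91 to 3.42). *Srebf1* stood at 19.5, 21.1 and 13.2 CPM, with a monocyte ratio of 1.08 (0.971 to 1.21). *Insig1* stood at 26.3, 95.8 and 53.4 CPM. *Stard4*, which carries cholesterol between membranes, was also higher in monocytes, at 24.5 against 7.37 CPM, a ratio of 3.33 (2.89 to 3.84).

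The fatty acid genes showed no shared excess in monocytes. Their summed level in control dpi2 was 158 CPM (154 to 162) in macrophages and 164 CPM (160 to 169) in monocytes. *Fads1*, the delta-5 desaturase of polyunsaturated fatty acids, went the other way, at 16.9 CPM in macrophages and 5.09 CPM in monocytes, a ratio of 0.301 (0.249 to 0.363), and 0.257 (0.201 to 0.324) in KO dpi2. *Elovl6*, an elongase, was higher in monocytes, at 7.90 against 3.09 CPM, and in T or NK cells, at 42.7 CPM, a ratio to macrophages of 13.8 (8.03 to 22.5) from 19 UMIs. *Fads2* was close to the limit of detection, with from 0 to 4 UMIs in each macrophage sum.

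**Figure D1:**
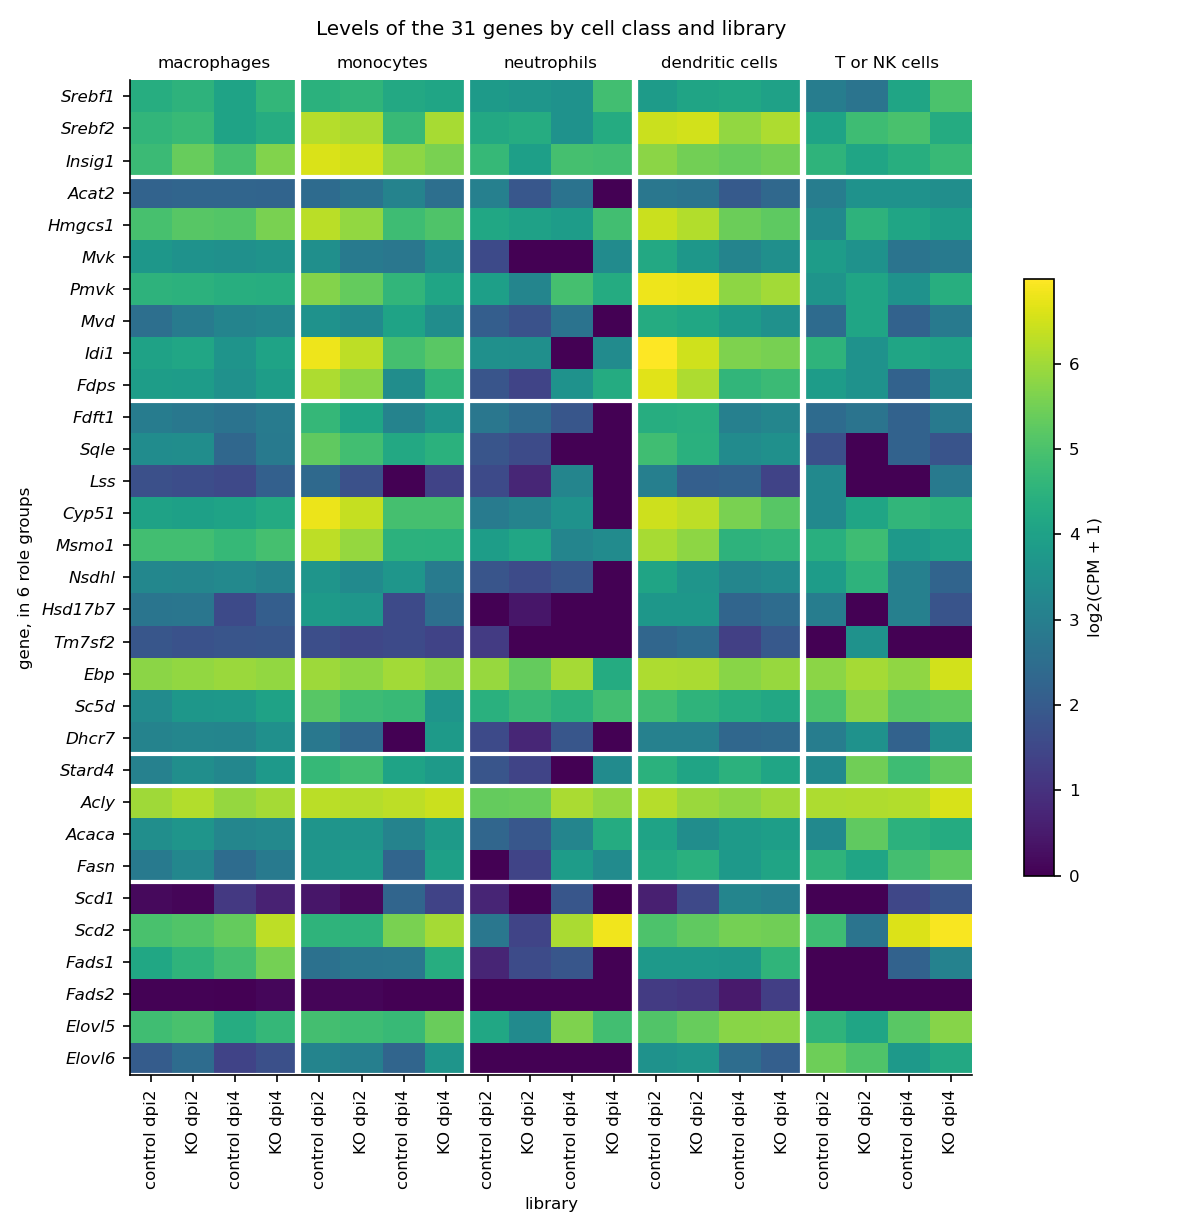
Levels of the 31 genes as log2(CPM + 1), by colour, in the summed cells of 5 cell classes (columns, 4 libraries each); rows are genes in 6 role groups split by white lines. *Idi1*, *Fdps* and *Cyp51* are brightest in monocytes and dendritic cells at dpi2, whereas *Ebp* and *Acly* have much the same colour in macrophages, monocytes and dendritic cells, and *Fads2* is dark throughout.

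Monocytes were shallower than macrophages (median of 10014 against 18102 UMIs per cell in control dpi2), so shares of cells were compared after each cell had been thinned to 2000 UMIs. At that depth 59.6% of monocytes (57.6 to 61.5) and 36.2% of macrophages (34.0 to 38.4) of control dpi2 had at least 1 UMI of a sterol enzyme. The unthinned shares were 91.9% and 90.3%, so that depth hid the difference. Neutrophils, the class with the lowest level, had 27.4% (23.4 to 31.7) when thinned, after 167 of 631 shallower cells were left out; their median depth was 2308 UMIs. *Idi1* alone was found in 16.5% of thinned monocytes and 3.14% of macrophages (2.41 to 4.03) of control dpi2, and in 13.3% (11.3 to 15.6) and 2.58% (1.70 to 3.73) of KO dpi2. Without thinning these shares were 44.5%, 18.9%, 41.1% and 24.4%.

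The promoters of all members found in the reference table were examined because SREBP proteins act through sterol regulatory elements, usually beside a box for the factor NF-Y. The RefSeq promoter table (GRCm38.p6; 250 bases before to 50 after each start) matched 24 of the 31 members, with 29 promoters. The motif CCAAT (NF-Y box), read on both strands, was found in 21 of the 29 member promoters, belonging to 20 of the 24 members, and in 37.4% of all 32851 promoters. The element TCACNCCAC was found in 1 of the 29 member promoters, that of *Hmgcs1*, and in 1.24% of all promoters. The E-box CACGTG was found in 5 of the 29, 1 each for 5 members (*Dhcr7*, *Elovl5*, *Hsd17b7*, *Insig1* and *Sc5d*) and in 7.15% of all promoters. These matches are a description of letters in a short window. *Fdps*, *Fdft1*, *Sqle*, *Stard4*, *Scd1*, *Scd2* and *Fads1* were not matched.

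Promoters are printed below for 3 enzymes high in monocytes, for *Msmo1*, which held the CCAAT box more than once, and for *Insig1*, which held both a CCAAT box and an E-box. They read 5′ to 3′ along the gene, with any of the 3 motifs, on either strand, in capitals. The windows are chr13:119690101-119690400 (+) for *Hmgcs1*, chr13:8885356-8885655 (+) for *Idi1*, chr5:4104648-4104947 (-) for *Cyp51*, chr8:64733529-64733828 (-) for *Msmo1* and chr5:28071162-28071461 (+) for *Insig1*. In *Hmgcs1* the capitals mark 4 CCAAT boxes, written ATTGG on this strand, and the sterol element between them.
Hmgcs1: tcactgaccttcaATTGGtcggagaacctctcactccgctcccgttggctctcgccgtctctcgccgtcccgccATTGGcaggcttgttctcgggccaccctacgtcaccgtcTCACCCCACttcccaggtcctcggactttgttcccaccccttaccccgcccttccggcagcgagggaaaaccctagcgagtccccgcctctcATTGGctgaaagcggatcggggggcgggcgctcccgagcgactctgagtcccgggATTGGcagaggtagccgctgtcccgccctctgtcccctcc
Idi1: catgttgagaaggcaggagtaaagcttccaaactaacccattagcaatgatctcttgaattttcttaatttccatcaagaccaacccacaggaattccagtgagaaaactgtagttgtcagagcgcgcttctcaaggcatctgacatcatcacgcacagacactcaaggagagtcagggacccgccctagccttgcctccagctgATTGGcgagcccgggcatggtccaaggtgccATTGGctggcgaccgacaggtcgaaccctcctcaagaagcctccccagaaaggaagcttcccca
Cyp51: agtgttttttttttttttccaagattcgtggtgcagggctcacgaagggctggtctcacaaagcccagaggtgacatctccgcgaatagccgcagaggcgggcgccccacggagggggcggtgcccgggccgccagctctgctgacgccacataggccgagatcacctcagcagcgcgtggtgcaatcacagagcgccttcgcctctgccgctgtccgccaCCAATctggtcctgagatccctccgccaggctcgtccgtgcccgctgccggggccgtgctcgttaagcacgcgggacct
Msmo1: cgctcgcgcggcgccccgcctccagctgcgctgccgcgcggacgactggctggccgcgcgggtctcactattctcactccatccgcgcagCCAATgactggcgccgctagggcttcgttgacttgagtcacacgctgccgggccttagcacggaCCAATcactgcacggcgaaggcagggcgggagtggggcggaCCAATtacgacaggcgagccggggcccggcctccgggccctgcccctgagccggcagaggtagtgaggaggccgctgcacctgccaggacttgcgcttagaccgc
Insig1: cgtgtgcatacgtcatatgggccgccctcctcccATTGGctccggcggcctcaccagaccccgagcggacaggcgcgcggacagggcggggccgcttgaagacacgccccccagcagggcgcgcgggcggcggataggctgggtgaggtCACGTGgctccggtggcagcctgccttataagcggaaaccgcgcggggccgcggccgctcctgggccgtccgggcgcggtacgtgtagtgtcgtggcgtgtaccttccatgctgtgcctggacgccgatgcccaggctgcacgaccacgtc

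The promoters of *Idi1* and *Msmo1* held 2 and 3 CCAAT boxes, and that of *Cyp51* held 1. None of the 4 besides *Hmgcs1* held TCACNCCAC in this window.

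Members were then compared among themselves over 53 sums, each of the cells of 1 cluster in 1 library with at least 300000 UMIs. Each member was set against the summed level of the other sterol enzymes. *Idi1* and *Cyp51* followed the others most closely (Spearman's rho of 0.88 for both), then *Fdps* (0.85), *Sqle* (0.82) and *Fdft1* (0.81). *Srebf2* had a rho of 0.76 and *Srebf1* of 0.02. At the other end were *Ebp* (0.09) and *Dhcr7* (-0.07), and among the fatty acid genes *Scd2* (-0.15) and *Fads1* (-0.24). For comparison, the 99th percentile over all 9112 genes of at least 5 CPM was 0.58. The points share libraries and differ in depth, and *Lss*, *Tm7sf2*, *Acat2*, *Scd1* and *Fads2* were too sparse for their values to be read. *Fdps* and *Tm7sf2* also overlap another gene on the same strand (*Gm43738* and *Vps51*), so reads near those ends may be split.

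Among the genes of efflux and uptake outside the list, the 3 lowest values were those of *Mylip*, *Abca1* and *Abcg1*, and most others lay near the median over all genes, -0.07. *Mylip*, which marks lipoprotein receptors for degradation, and *Abca1*, the cholesterol exporter, had values of -0.66 and -0.55, and *Abcg1* had -0.36. Levels of *Abca1* in control dpi2 were 218 CPM in macrophages, 27.2 in monocytes and 4.74 in dendritic cells, the reverse of the order of *Idi1* and *Fdps*.

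**Figure D2:**
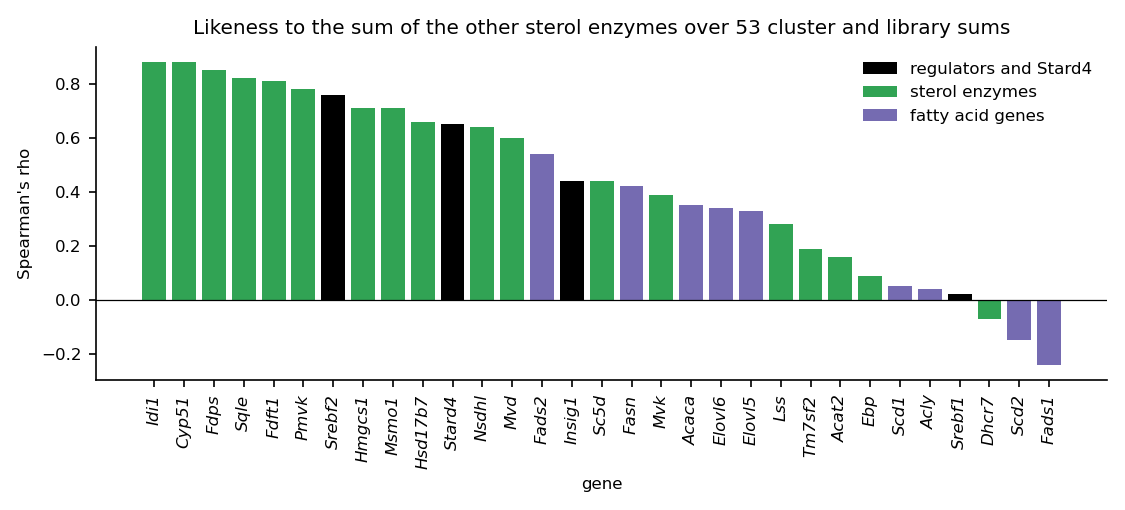
Spearman's rho between each gene and the summed level of the other sterol enzymes over 53 sums of a cluster in a library; bars are coloured by group. *Idi1* and *Cyp51* stand at 0.88, whereas *Srebf1*, *Acly* and *Ebp* lie under 0.10 and *Fads1* stands at -0.24.

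The same order held at the level of clusters. In control dpi2 the 4 monocyte clusters lay between 647 and 810 CPM of summed sterol enzymes, and the dendritic clusters led by *Cd209a*, *Xcr1* and *Ccr7* at 802, 803 and 900 CPM. The macrophage clusters of that library lay between 240 and 336 CPM, so that these ranges did not overlap. Within macrophages the cycling cluster (led by *Ccna2*) stood at 289 CPM in control dpi2, within the range of the others, and at 378 CPM (346 to 411) in KO dpi2, above the other macrophage clusters of that library. Markers of the other class were measured beside this: the 10 macrophage markers summed to 4132 CPM in monocytes and 11587 CPM in macrophages of control dpi2, and the 6 monocyte markers to 9725 and 1059 CPM.

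**Figure D3:**
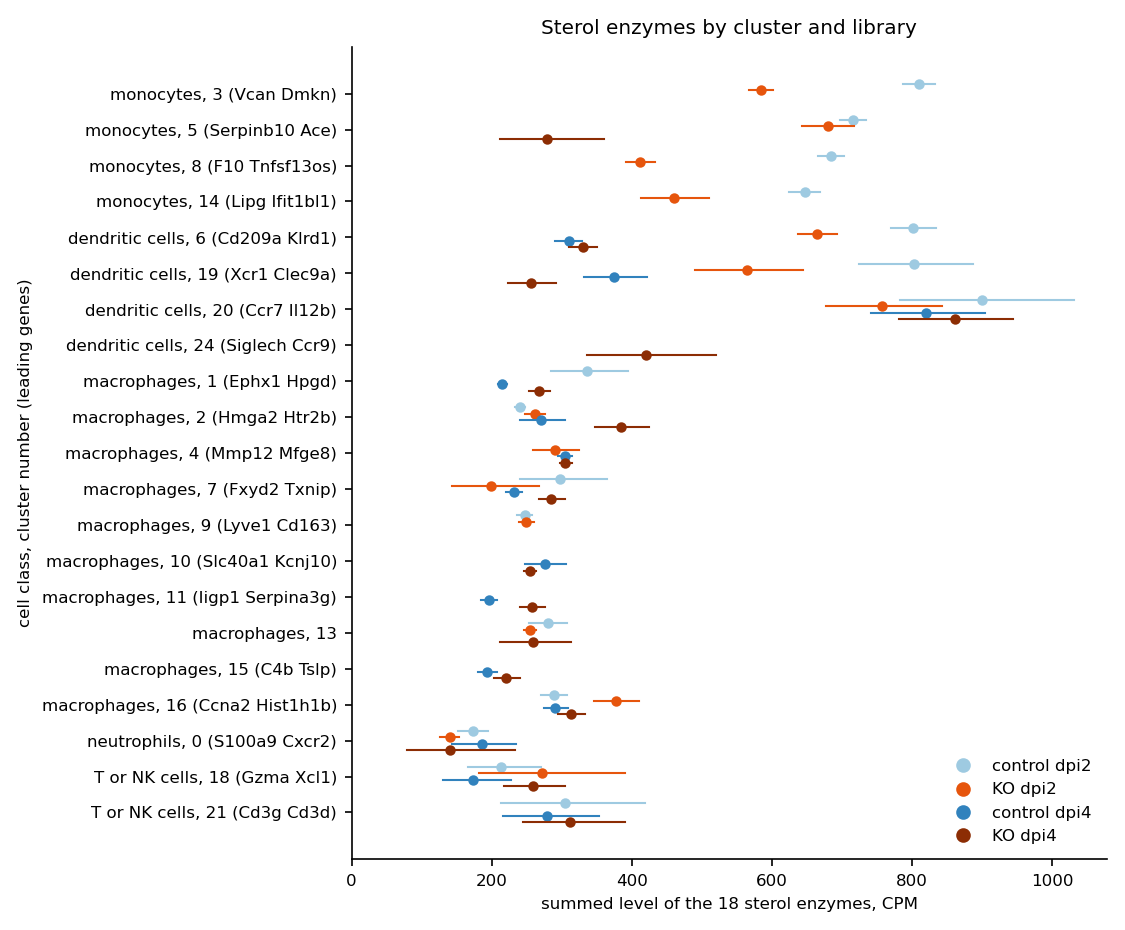
Summed level of the 18 sterol enzymes in CPM (x axis) in each cluster of the 5 cell classes (y axis), with 95% counting intervals; colours are the 4 libraries, sums of fewer than 20 cells are left out, and 1 macrophage cluster is labelled by its number only. At dpi2 monocyte and dendritic clusters lie above 400 CPM and macrophage clusters below it, and at dpi4 the *Ccr7* dendritic cluster stays above 800 CPM.

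Between dpi2 and dpi4 the sterol enzymes were lower in dendritic cells and monocytes, whereas their sum over all macrophages hardly differed. In dendritic cells the sum stood at 809, 673, 371 and 376 CPM, so that dpi4 over dpi2 was 0.459 (0.433 to 0.487) in control and 0.558 (0.526 to 0.593) in KO. By the rule of size 10 of 25 members were lower in control dendritic cells (6.98% of all genes past the rule in either direction) and 7 of 26 in KO (6.23%), and none was higher. *Fdps* stood there at 102, 69.0, 23.4 and 26.1 CPM. *Msmo1*, a sterol methyl oxidase, stood at 65.8, 55.2, 22.1 and 23.4 CPM. In the same cells the summed macrophage markers were 685, 1095, 4687 and 2475 CPM and the monocyte markers 3047, 2015, 1487 and 1621 CPM, and their part in the differences between times and genotypes was not tested.

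The dendritic clusters differed in this. The *Cd209a* cluster stood at 802, 665, 310 and 330 CPM of summed sterol enzymes and the *Xcr1* cluster at 803, 564, 375 and 256 CPM. The *Ccr7* cluster, whose leading genes *Ccr7* and *Fscn1* mark mature dendritic cells, stood at 900, 757, 820 and 861 CPM, and the intervals of its 4 values overlapped. It held only 24, 25, 44 and 58 cells.

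Monocytes stood at 716, 543, 300 and 309 CPM for the sum. The ratio of dpi4 over dpi2 was 0.419 (0.355 to 0.491) in control and 0.570 (0.491 to 0.658) in KO. Of members with enough UMIs, 10 of 29 were lower and 1 higher in control (6.89% of all genes past the rule), and 7 of 27 lower and 3 higher in KO (8.95%). *Idi1* stood at 111, 77.7, 29.2 and 35.8 CPM, and *Cyp51* at 110, 82.3, 29.2 and 29.3 CPM. The dpi4 values of these genes rest on 15 to 22 UMIs each. *Scd2*, the 1 member higher in control, stood at 22.2, 21.9, 46.7 and 65.1 CPM, and in KO *Fads1*, with a ratio of 3.42 (1.70 to 6.31), and *Dhcr7*, with 3.13 (1.29 to 6.59), were higher as well. Macrophage markers also moved: their sum in monocytes was 4132, 4961, 12607 and 8907 CPM, and their part in the difference between time points was not tested.

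In macrophages the sum was 251, 261, 243 and 280 CPM, and the ratio of dpi4 over dpi2 was 0.967 (0.942 to 0.993) in control and 1.07 (1.04 to 1.10) in KO. Within clusters the ratios went further apart, from 0.641 (0.543 to 0.761) in the *Ephx1* cluster to 1.13 (0.994 to 1.27) in the *Hmga2* cluster in control, and from 0.829 (0.747 to 0.922) in the cycling cluster to 1.47 (1.31 to 1.64) in the *Hmga2* cluster in KO. These extremes rest on few cells at 1 of the time points. The *Ephx1* cluster held 27 control cells and the cycling cluster 35 KO cells at dpi2. The *Hmga2* cluster held 48 control and 43 KO cells at dpi4. In control macrophages 3 of 30 members passed the rule of size, 2 lower and 1 higher (15.8% of all genes). *Sqle*, squalene epoxidase, stood at 9.56, 9.84, 4.07 and 6.16 CPM, and its dpi4 ratio in control was 0.426 (0.359 to 0.504). *Hsd17b7*, a sterol reductase, stood at 5.55, 5.70, 1.97 and 3.28 CPM, with a control ratio of 0.356 (0.280 to 0.450). Both were lower at dpi4 in KO as well, at 0.626 (0.530 to 0.740) and 0.575 (0.459 to 0.720), within 2-fold.

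*Scd1*, the stearoyl-CoA desaturase of liver and fat, was scarce throughout, at 0.132, 0.0674, 1.24 and 0.604 CPM in macrophages from 5, 2, 69 and 28 UMIs. Its dpi4 ratio in control was 9.37 (3.83 to 29.8). In KO macrophages 2 of 29 members passed the rule (13.9% of all genes), both higher and both fatty acid desaturases. *Scd2*, the stearoyl-CoA desaturase of most other tissues, stood at 30.9, 33.1, 39.4 and 76.8 CPM, a KO ratio of 2.32 (2.16 to 2.49). *Fads1* stood at 16.9, 22.3, 28.6 and 44.9 CPM, a KO ratio of 2.02 (1.85 to 2.21), just past 2-fold, and it no longer passed without the *Slc40a1* cluster, which left 1 member. In control macrophages the same genes had ratios of 1.27 (1.19 to 1.37) and 1.70 (1.55 to 1.86). Different clusters made up the macrophages at the time points: in control, 1159 of 1969 cells lay in the *Hmga2* cluster at dpi2 and 1169 of 3048 in the *Ephx1* cluster at dpi4. Their part in the ratios between times, those of *Sqle* and *Hsd17b7* among them, was not tested.

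*Scd2* was also higher at dpi4 in cells other than macrophages. In T or NK cells it stood at 27.0, 5.42, 97.3 and 119 CPM from 12, 1, 54 and 95 UMIs, and in neutrophils at 5.86, 1.69, 67.3 and 113 CPM from 9, 5, 25 and 12 UMIs. In dendritic cells it moved less, at 32.1, 38.2, 44.9 and 43.6 CPM. The 7 muscle markers summed to 25.4, 19.9, 64.6 and 65.8 CPM in neutrophils and to 5.84, 5.43, 41.3 and 26.8 CPM in macrophages, higher at dpi4 in both, and to 15.7, 16.3, 12.6 and 23.8 CPM in T or NK cells. Macrophage markers were higher at dpi4, at 655, 513, 3422 and 3376 CPM in neutrophils and 283, 211, 1423 and 1085 CPM in T or NK cells, and the cell cycle sum of T or NK cells was 29.2, 75.9, 1016 and 408 CPM. The part of these in the level of *Scd2* was not tested.

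The comparison of genotypes asked how the members stood in the library labelled KO, from mice with a myeloid deletion of *Bach1*, against that labelled control. In monocytes at dpi2 the sterol enzymes were lower in the library labelled KO. Their sum was 716 CPM in control and 543 CPM in KO, a ratio of 0.758 (0.739 to 0.779). Of the 18 enzymes 17 had a ratio under 1, and for 14 the interval lay wholly under 1, against 23.2% of all genes. No member passed the rule of size (4.55% of all genes did), since the differences were under 2-fold. The median log2 ratio was -0.40 for the sterol enzymes, -0.02 for the fatty acid genes and -0.01 for all genes.

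*Idi1* stood at 111 CPM in control and 77.7 in KO monocytes, a ratio of 0.698 (0.651 to 0.748). *Cyp51* stood at 110 and 82.3 CPM (0.746, 0.697 to 0.799), *Hmgcs1* at 76.4 and 56.4 CPM (0.738, 0.679 to 0.801) and *Fdft1*, squalene synthase, at 24.1 and 16.1 CPM (0.668, 0.572 to 0.778). Among enzymes up to farnesyl pyrophosphate *Mvk* had the lowest ratio, 0.633 (0.494 to 0.805), at 10.1 and 6.41 CPM, and among later ones *Lss*, lanosterol synthase, with 0.543 (0.357 to 0.805), at 4.28 and 2.33 CPM. Under other settings the log2 ratio of *Mvk*, -0.66, came as near to 0 as -0.27, and that of *Lss*, -0.88, as near as -0.49. *Acat2* alone of the 18 had a ratio over 1, 1.19 (0.883 to 1.61).

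Over all monocytes the regulators differed less than the summed enzymes did. *Srebf2* stood at 72.8 and 68.1 CPM in control and KO monocytes, a ratio of 0.935 (0.865 to 1.01), *Srebf1* at 21.1 and 22.8 CPM (1.08, 0.941 to 1.24) and *Insig1* at 95.8 and 88.3 CPM (0.922, 0.861 to 0.986). Within the 4 monocyte clusters the ratios went further apart, from 0.491 (0.324 to 0.716) to 1.16 for *Insig1*, under 1 in 3 of 4, from 0.673 (0.562 to 0.802) to 1.14 for *Srebf2*, under 1 in 2 of 4, and from 0.838 to 1.30 for *Srebf1*, under 1 in 3 of 4. *Stard4* stood at 24.5 and 28.1 CPM (1.15, 1.01 to 1.30), with 2 of 4 clusters above 1. Of the 7 fatty acid genes with enough UMIs, none had an interval that left out 1. Among these *Fads1* was farthest from 1, at 5.09 and 5.71 CPM, and among the 3 synthesis genes *Fasn*, fatty acid synthase, at 11.8 and 12.7 CPM, whereas within 3 clusters its ratios were all under 1, from 0.747 to 0.995.

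The monocytes of the libraries were spread differently over 4 clusters, with 588, 859, 690 and 437 control cells and 536, 164, 244 and 52 KO cells in those led by *Vcan*, *Serpinb10*, *F10* and *Lipg*. The ratio of summed sterol enzymes was 0.720 (0.692 to 0.750), 0.950 (0.893 to 1.01), 0.602 (0.569 to 0.637) and 0.711 (0.635 to 0.795) in this order. All 4 lay under 1, and in the *Serpinb10* cluster the interval included 1. The summed monocyte markers were 9725 CPM in control and 7325 CPM in KO monocytes, and the summed neutrophil markers 219 and 469 CPM; their part was not tested. Dendritic cells at dpi2 had a ratio of 0.832 (0.790 to 0.876), with 0 of 26 members past the rule (2.85% of all genes), and the 3 dendritic clusters with enough cells had ratios from 0.703 to 0.841.

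**Figure D4:**
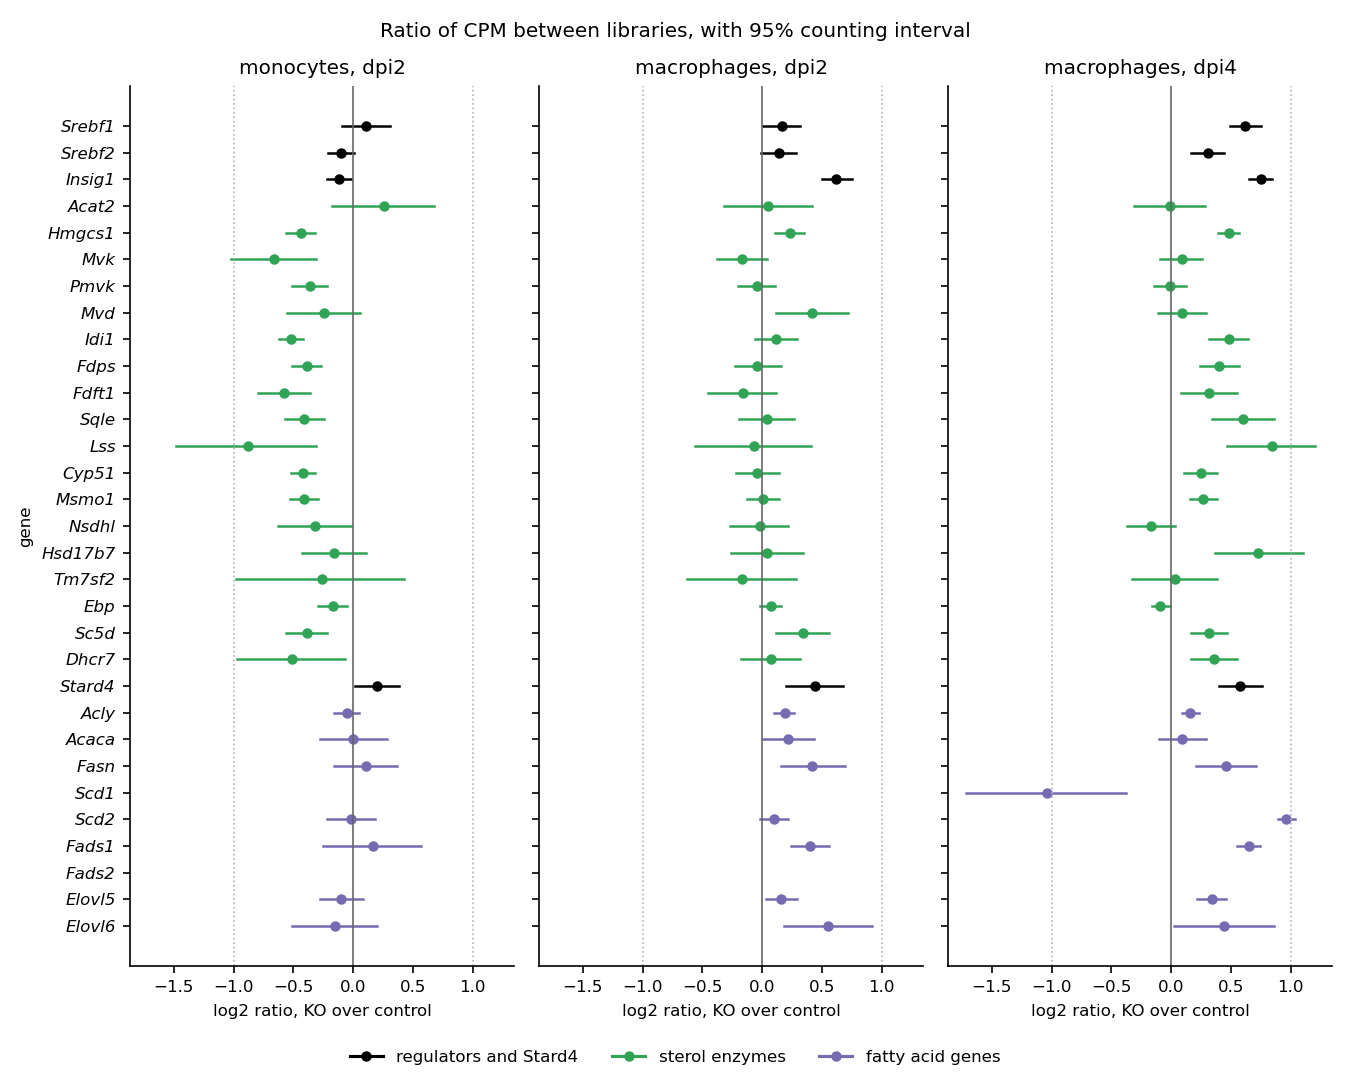
Log2 ratio of CPM, KO over control, for each member (rows) with 95% counting intervals, in monocytes at dpi2, macrophages at dpi2 and macrophages at dpi4; dotted lines mark 2-fold, and genes under 50 UMIs in the pair have no point. Sterol enzymes (green) lie mostly left of 0 in monocytes, around 0 in macrophages at dpi2 and mostly right of 0 in macrophages at dpi4, where *Scd2* stands at 0.96 and *Scd1* at -1.04.

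Macrophages at dpi2 did not show the difference seen in monocytes. Their summed sterol enzymes stood at 251 CPM in control and 261 in KO, a ratio of 1.04 (1.01 to 1.07), and 0 of 29 members passed the rule of size (4.40% of all genes). With monocytes and macrophages pooled the ratio was 0.791, so the direction depends on separating the classes. In macrophages thinned to equal depth the mean was 0.503 sterol enzyme UMIs per cell in control and 0.491 in KO. The small excess of the sum was thus not seen at equal depth. Within 5 macrophage clusters the ratios went both ways, from 0.666 (0.453 to 0.964) in the *Fxyd2* cluster to 1.31 (1.18 to 1.45) in the cycling cluster. *Insig1* was farthest from 1, at 26.3 CPM in control and 40.5 in KO, a ratio of 1.54 (1.42 to 1.68). Its ratios within 4 clusters were smaller, from 1.01 to 1.44, and with monocytes and macrophages pooled its log2 ratio was 0.01 in place of 0.62. *Elovl6* stood at 3.09 and 4.52 CPM (1.46, 1.13 to 1.89), *Stard4* at 7.37 and 10.0 CPM (1.36, 1.15 to 1.61), *Mvd*, which makes isopentenyl diphosphate, at 4.83 and 6.47 CPM (1.34, 1.09 to 1.65) and *Fasn* at 6.29 and 8.43 CPM (1.34, 1.12 to 1.61). Within clusters with enough UMIs *Fasn* had a ratio above 1 in 4 of 4, *Elovl6* in 2 of 3 (0.690 to 1.66), *Mvd* in 2 of 3 (0.991 to 1.60) and *Stard4* in 2 of 4 (0.930 to 1.76). Among the enzymes after squalene *Sc5d*, a sterol desaturase, was farthest from 1, at 9.43 and 11.9 CPM (1.27, 1.09 to 1.47). All 7 fatty acid genes with enough UMIs had a ratio over 1, with a median log2 ratio of 0.22. The cells lay mostly in other clusters, with 1159 control and 179 KO cells in the *Hmga2* cluster and 465 and 322 in the *Lyve1* cluster. Cell cycle genes also differed, their 8-gene sum being 207 CPM in control and 117 in KO, and the part of either in these ratios was not tested.

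In macrophages at dpi4 most members were higher in the library labelled KO. Of 30 members with enough UMIs 25 had a ratio over 1, and for 21 the interval lay wholly above 1, against 26.5% of all genes. The median log2 ratio was 0.33 for the members, 0.29 for the sterol enzymes, 0.39 for the fatty acid genes and 0.01 for all genes. The rule of size was passed by 1 member, *Scd1* (2.33% of all genes passed it), which was lower, at 1.24 CPM in control and 0.604 in KO, a ratio of 0.488 (0.303 to 0.767) from 69 and 28 UMIs. With other cell filters or clustering its log2 ratio lay between -1.17 and -0.70, in place of -1.04, and it often no longer passed.

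*Scd2* lay just inside 2-fold, at 39.4 CPM in control and 76.8 in KO, a ratio of 1.95 (1.85 to 2.06). In cells thinned to 2000 UMIs it was found in 5.56% of control (4.77 to 6.45) and 12.8% of KO macrophages (11.5 to 14.1), and in 34.2% and 52.5% without thinning. *Fads1* stood at 28.6 and 44.9 CPM (1.57, 1.47 to 1.67). Among the synthesis genes *Fasn* was farthest from 1, at 4.56 and 6.25 CPM (1.37, 1.16 to 1.63), but within 4 clusters its ratios went both ways, from 0.710 to 1.57, with 2 above 1. *Acly*, which makes cytosolic acetyl-CoA from citrate, differed little, at 58.2 and 65.1 CPM (1.12, 1.06 to 1.18).

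Over all macrophages at dpi4 the 3 regulators were higher in KO, *Srebf2* not in every cluster. *Insig1* stood at 29.8 CPM in control and 49.9 in KO (1.68, 1.57 to 1.79), *Srebf1* at 15.5 and 23.8 CPM (1.54, 1.40 to 1.68) and *Srebf2* at 15.5 and 19.2 CPM (1.24, 1.13 to 1.36). *Stard4* stood at 8.36 and 12.5 CPM, with an interval of the ratio of 1.32 to 1.69.

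The sterol enzymes differed less as a sum, 243 against 280 CPM, a ratio of 1.15 (1.13 to 1.18). *Lss* was farthest from 1, at 1.92 and 3.43 CPM (1.79, 1.39 to 2.30), followed by *Hsd17b7*, at 1.97 and 3.28 CPM (1.66, 1.29 to 2.14). *Hmgcs1* stood at 33.6 and 47.0 CPM (1.40, 1.31 to 1.49) and *Idi1* at 11.2 and 15.6 CPM (1.39, 1.25 to 1.55). *Ebp* was slightly lower in KO, at 60.6 and 57.1 CPM (0.943, 0.895 to 0.992).

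The macrophages of the libraries again lay in different clusters. The *Slc40a1* cluster held 55 control and 705 KO cells, the *Mmp12* cluster 464 and 611, and the *Ephx1* cluster 1169 and 369. Within 8 clusters that held at least 20 cells of each library, *Fads1* and *Insig1* were higher in KO in all 8, with ratios from 1.16 to 1.69 and from 1.29 to 2.44. *Scd2* was higher in 7 of 8, from 1.19 in the cycling cluster to 2.66 in the *C4b* cluster, and lower in the *Hmga2* cluster, at 0.794 (0.520 to 1.21). *Srebf1* was higher in all 7 clusters with enough UMIs, from 1.04 in the *Slc40a1* cluster to 3.12 (2.24 to 4.36) in the interferon-gene cluster led by *Iigp1*, and had under 50 UMIs in the *Hmga2* cluster. *Srebf2* was higher in 6 of 8, with ratios from 0.805 (0.672 to 0.963) in the *Mmp12* cluster to 2.25 (1.57 to 3.21) in the *Iigp1* cluster. The sterol sum had ratios from 0.925 to 1.42, and *Hmgcs1* was above 1 in 7 of 8, *Stard4* in 6 of 7 and *Idi1* in 5 of 6. Without the *Slc40a1* cluster the log2 ratio of *Insig1* was 0.55 in place of 0.75, that of *Fads1* 0.55 in place of 0.65, and *Scd1* no longer passed the rule of size. The cell cycle sum was 200 CPM in control and 193 in KO. Markers of cell types also differed in these macrophages, from 39154 to 32569 CPM (control to KO) for macrophages, 43.6 to 25.6 for T or NK cells, 41.3 to 26.8 for muscle and 35.6 to 17.2 for fibroblasts, and their part in the ratios was not tested.

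**Figure D5:**
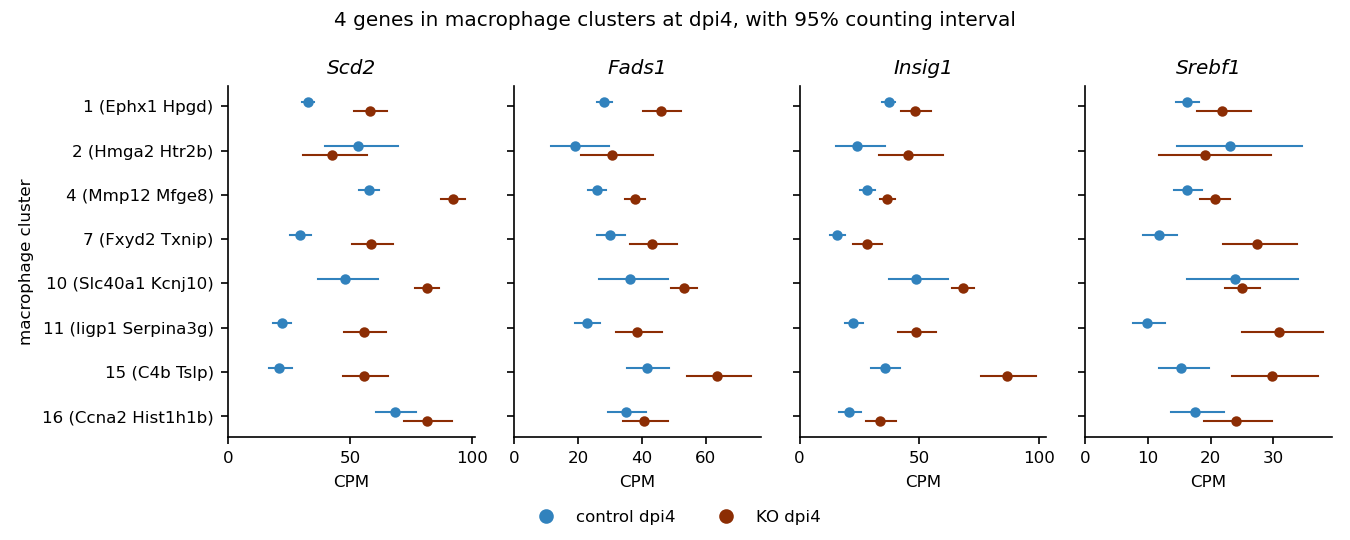
Level in CPM (x axes) of *Scd2*, *Fads1*, *Insig1* and *Srebf1* in 8 macrophage clusters at dpi4 (y axis) in the control (blue) and KO (brown) library, with 95% counting intervals. *Fads1* and *Insig1* lie higher in KO in all 8 clusters and *Scd2* in 7, the exception being the *Hmga2* cluster.

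In monocytes at dpi4 only 5 members had enough UMIs and 1 passed the rule (3.61% of all genes): *Srebf2* stood at 25.3 CPM in control and 66.8 in KO from 13 and 41 UMIs, a ratio of 2.64 (1.39 to 5.37). Its log2 ratio, 1.40, lay between 0.35 and 2.13 under other settings. Its levels at dpi2 were 72.8 and 68.1 CPM. In dendritic cells at dpi4 0 of 24 members passed (1.39% of all genes); *Fads1* was farthest from 1, at 12.1 and 22.6 CPM (1.86, 1.34 to 2.62). In neutrophils 0 of 9 members passed at dpi2 (9.20% of all genes, whose median log2 ratio was -0.30), and at dpi4 no member reached 50 UMIs (6.29% of the genes that did passed the rule). In T or NK cells no member reached 50 UMIs at dpi2 (4.93% of the genes that did passed the rule), and 0 of 5 passed at dpi4 (2.83%).

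Further genes of sterol handling, from fixed lists, were set beside the members. Among other genes of synthesis and SREBP processing *Me1*, malic enzyme, which supplies NADPH, passed the rule in macrophages at dpi2 (4.40% of all genes did) and dpi4 (2.33%) and was higher in KO. It stood at 0.819 CPM in control and 1.96 in KO at dpi2, a ratio of 2.39 (1.52 to 3.82), and at 2.37 CPM in KO at dpi4, a ratio of 3.39 (2.33 to 5.02). In monocytes at dpi2 0 of the 13 genes of this list with enough UMIs passed (4.55% of all genes).

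Of 10 genes of efflux, storage and oxysterol synthesis, 1 passed in macrophages at dpi4 (2.33% of all genes), *Ch25h*, which makes 25-hydroxycholesterol, an oxysterol that holds back SREBP processing. It stood at 11.5, 13.9, 1.56 and 3.23 CPM, a KO ratio of 2.07 (1.58 to 2.73) at dpi4. *Abca1* passed in monocytes at dpi2 (4.55% of all genes), at 27.2 CPM in control and 67.6 in KO (2.48, 2.25 to 2.74), and in dendritic cells (2.85%), at 4.74 and 17.0 CPM (3.58, 2.11 to 6.39). In neutrophils at dpi2 *Abca1* did not pass, at 54.1 and 57.4 CPM, and 2 of 8 genes of the list with enough UMIs were lower in KO (9.20%), *Abcg1* at 122 and 59.8 CPM and *Npc2* at 318 and 145 CPM. *Abcg1* stood at 61.7 and 34.5 CPM in monocytes. Both exporters were higher at dpi4 than at dpi2 in macrophages, *Abca1* at 218, 295, 502 and 547 CPM and *Abcg1* at 105, 61.8, 212 and 254 CPM. Of the 5 uptake genes 4 had enough UMIs, and none of these passed between genotypes in macrophages (4.40% of all genes at dpi2 and 2.33% at dpi4) or monocytes (4.55% and 3.61%). *Cd36* passed in dendritic cells at dpi2 (2.85%), at 19.7 and 47.8 CPM (2.42, 1.85 to 3.20). *Cd36* and *Abca1* were higher in macrophages than in dendritic cells, and macrophage markers in the dendritic cells went from 685 to 1095 CPM, whose part in these calls was not tested.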

How the data were processed

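The deposited files are raw UMI counts per gene and barcode, made by the authors with Cell Ranger 6.1.2 on mm10, per the submitters' processing notes. The labels name a v2 kit and the study's methods v3.1. The members and lists were chosen with earlier results of these data known.

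Cells with at least 500 genes and under 10% mitochondrial UMIs were kept, and doublets were removed with Scrublet at 0.8% per 1000 cells. The study used miQC, scDblFinder and Harmony, which were replaced here. Clustering used scanpy 1.11.5 and leidenalg 0.10.2 (2000 variable genes, 30 components, 15 neighbours, resolution 1). Members, pathway genes, *Bach1* and *Lyz2* were kept out of the variable genes. Classes were named from fixed markers, candidates needing at least 3 markers detected in at least 10% of a cluster's cells, a limit set after seeing a score without detected markers.

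Counts were summed per class and library as CPM, with exact Poisson intervals, conditional binomial intervals for ratios and Clopper-Pearson intervals for shares, all at 95% (numpy 2.4.6, scipy 1.17.1). TMM scaling in edgeR 4.0.16 (R 4.3.3) was an alternative only. All 31 members were accounted for. Named with values were those past the rule of size between genotypes in macrophages or monocytes, or between times in macrophages, and those farthest from 1 in each role group. Other members given with values, and those shown for the comparison of cell types, were chosen after their values were seen. The rule of size was tested on simulated data. Some results of the gene lists are not reported here.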

Additional observations from a re-analysis of the deposited data

Results flagged for a closer look

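At dpi2 the ratio of summed counts, KO over control, lay on opposite sides of 1 in monocytes and macrophages for 4 results. The counting intervals of each lay on opposite sides of 1 as well. For the summed sterol enzymes the log2 ratio was -0.40 in monocytes and 0.06 in macrophages, a difference of -0.46. For *Insig1* it was -0.12 and 0.62, a difference of -0.74. For *Hmgcs1* it was -0.44 and 0.23, a difference of -0.67. For *Sc5d* it was -0.39 and 0.34, a difference of -0.73. The macrophage direction of the sum is small and depends on separating the classes. With monocytes and macrophages pooled its ratio was 0.791, and the log2 ratio of *Insig1* was 0.01. It also depends on weighting by depth. In cells thinned to equal depth, macrophages had a mean of 0.503 sterol enzyme UMIs in control and 0.491 in KO. Thinned monocytes had 1.42 and 1.15. In macrophages 10 of the 18 enzymes had a ratio over 1 and 8 under 1, with a median log2 ratio of 0.02. An opposite direction of the sterol enzymes in macrophages is thus not shown. With 1 library per group the difference was not tested.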

How the results depend on the processing

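No paired analysis was possible because each group had 1 library. With monocytes and macrophages pooled, the direction at dpi2 turned: the ratio of summed sterol enzymes was 0.791 (1.04 for macrophages alone) and the members' median log2 ratio -0.16 (0.10), and the log2 ratio of *Insig1* was 0.01 (0.62). The pool adds 2574 control and 996 KO monocytes, whose own ratio was 0.758. It is therefore not a measure of macrophages alone. Counts of members past the rule of size that moved were these. At 1.5-fold the counts between genotypes were 1 in macrophages at dpi2, 8 in macrophages at dpi4 (main 1), 2 in monocytes at dpi2, 2 in neutrophils at dpi2, 1 in dendritic cells at either time and 1 in T or NK cells at dpi4, and between times 6 in control macrophages (main 3) and 6 in KO macrophages (main 2). In macrophages at dpi4 the count was 0 with a mitochondrial limit of 20%, 200 genes per cell, no doublet removal, each library clustered by itself, resolution 2, 200 UMIs or without the *Slc40a1* cluster, and 2 without cycling clusters. In monocytes at dpi4 (main 1) it was 5 with each library clustered by itself, 2 with no UMI minimum and 0 with 200 UMIs. In neutrophils at dpi2 it was 3 without doublet removal and 1 with no UMI minimum, which gave 1 in dendritic cells and 2 in T or NK cells at dpi2. Between times, pooling monocytes with macrophages gave 10 members in control and 6 in KO, and leaving out the *Slc40a1* cluster 1 in KO. The cause was not tested. The alternative without that cluster was chosen after seeing the data. The ratio of summed sterol enzymes was 0.756 to 0.801 in monocytes at dpi2 (main 0.758) and at least 1.12 in macrophages at dpi4 (main 1.15). In monocytes at dpi4 it reached 2.21 with each library clustered by itself (main 1.03), a class of 50 and 73 cells.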

Other observations

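A small cluster of muscle cells at dpi4, led by *Cdh15* and holding *Pax7*, a marker of satellite cells, had 102 control and 24 KO cells. Its summed sterol enzymes stood at 218 CPM (197 to 241) in control and 474 CPM (429 to 521) in KO, a ratio of 2.17 with a lower bound of 1.89. These sums rest on 386 and 419 UMIs, the fewer KO cells being deeper. The part of depth and of cell state in this ratio was not tested. The other cluster named muscle cells, led by *Acta1*, stood at 223 and 255 CPM, a ratio of 1.14 (0.994 to 1.31). Whether the *Acta1* cluster holds muscle cells alone was not tested. *Lyz2*-driven Cre is not aimed at muscle cells, and both clusters come from a preparation enriched for CD45+ cells.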
